A study of Homo sapiens with 12 samples.

Results

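The BCL2 family of cell death regulators was followed in LNCaP cells, an androgen-responsive human prostate cancer line, through 10 of its genes: BCL2, BCL2L1, MCL1, BAX, BAK1, BBC3, PMAIP1, BCL2L11, BIK and BID. All 10 were found among the 34643 gene symbols of the count table, and all 10 were among the 15419 genes with enough counts to be tested. The cells carried either a non-targeting shRNA (sh_scramble) or an shRNA against TMEFF2, a transmembrane protein of the prostate (sh_TMEFF2). The shRNAs were delivered by the lentiviral vector pLKO.1-puro, which drives them from a U6 promoter, and both lines were selected with puromycin, so the controls had been transduced and selected as well. The labels give 17 days of shRNA expression, and which of the study's TMEFF2 shRNAs the sequenced cells carried is not given in the sources used here. Cells of all 4 groups were kept for 24 h in hormone-depleted medium and then for 24 h with 10 nM dihydrotestosterone (DHT), a potent natural androgen, or with ethanol vehicle. Groups are written by line and treatment, as −DHT for vehicle and +DHT for hormone after the name of the shRNA, and held 3 libraries each. The 3 repeats were separate treatments of cells from 2 transductions, and which transduction a library came from is not given in the sources used here. P-values therefore measure the spread between treatments more than between transductions.

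The BCL2 family decides at the outer mitochondrial membrane whether a cell commits to apoptosis. The guardians BCL2, BCL2L1 (BCL-xL) and MCL1 bind and restrain the effectors BAX and BAK1, which otherwise assemble into pores that release cytochrome c. The BH3-only proteins BCL2L11 (BIM), BBC3 (PUMA), PMAIP1 (NOXA), BIK and BID sense stress and either occupy the groove of the guardians or activate the effectors directly. In prostate epithelium the family is known as an arm of the response to androgen withdrawal, and much of its control acts on the proteins rather than on the mRNA.

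What joins these genes is the BH3 motif, a short helix that fits the groove of the guardians. The stretches of coding sequence that hold it are shown because the motif is common to all members. Each is 36 bases long, 5′ to 3′ on the coding strand, and the capitals mark the 18 bases for leucine, 3 variable residues, a small residue and aspartate. Every stretch was the only match in the coding sequence of the gene's canonical GENCODE transcript and lay within 1 exon. The guardians and effectors carry it as follows.
BCL2: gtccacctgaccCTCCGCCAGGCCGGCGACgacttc
BCL2L1: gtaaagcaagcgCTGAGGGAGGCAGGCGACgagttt
MCL1: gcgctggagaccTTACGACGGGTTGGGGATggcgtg
BAX: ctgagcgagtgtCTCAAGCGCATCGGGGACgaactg
BAK1: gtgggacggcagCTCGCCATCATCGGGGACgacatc
The BH3-only genes carry it as follows.
BCL2L11: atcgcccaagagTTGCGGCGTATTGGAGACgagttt
BBC3: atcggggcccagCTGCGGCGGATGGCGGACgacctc
PMAIP1: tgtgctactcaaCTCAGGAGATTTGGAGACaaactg
BIK: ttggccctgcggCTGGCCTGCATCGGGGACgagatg
BID: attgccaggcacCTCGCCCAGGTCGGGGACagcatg
The small residue is glycine in every stretch except that of BBC3, where it is alanine.

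On GRCh38 the BH3 stretch of BCL2 lies in exon 2 at chr18:63318355-63318390 on the minus strand, that of BCL2L1 in exon 2 at chr20:31721928-31721963 on the minus strand, and that of MCL1 in exon 1 at chr1:150578871-150578906 on the minus strand. The stretch of BAX lies in exon 3 at chr19:48955775-48955810 on the plus strand and that of BAK1 in exon 4 at chr6:33575393-33575428 on the minus strand. Among the BH3-only genes, BCL2L11 has it in exon 3 at chr2:111150091-111150126 on the plus strand, BBC3 in exon 3 at chr19:47226585-47226620 on the minus strand and PMAIP1 in exon 2 at chr18:59902661-59902696 on the plus strand. BIK has it in exon 3 at chr22:43127704-43127739 on the plus strand, and BID in exon 4 at chr22:17739421-17739456 on the minus strand. All of these positions are exonic and coding. The counts were made per gene, so isoforms with and without these exons, which for BCL2L1, MCL1 and BCL2L11 can differ in function, were not separated. Some of the gene bodies overlap genes on the other strand, among them ABALON and BCL2L1-AS1 for BCL2L1, ADAMTSL4 for MCL1, GGNBP1 for BAK1 and MIR4435-2HG for BCL2L11. Others overlap genes on the same strand: ADAMTSL4-AS1, RN7SL473P and RN7SL600P for MCL1, MIR3191 for BBC3, MIR3198-1 for BID and a gene without a symbol for BCL2. How far the counts kept such neighbours apart was not tested. BAK1 has processed copies elsewhere in the genome, of which BAK1P1 had 0 to 3 counts and BAK1P2 had 0 counts in any library.

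Libraries held 19450866 to 22612046 estimated counts (median 21194622), and levels are given as CPM, the count of a gene scaled to a common library total after TMM normalization. No library stood apart from its group. The luminal markers of prostate epithelium, 9 of 9 including KLK3, were present in all groups, with a summed level of 8301 to 8535 CPM in sh_scramble −DHT, 14529 to 16325 CPM in sh_scramble +DHT, 5667 to 6303 CPM in sh_TMEFF2 −DHT and 6271 to 7643 CPM in sh_TMEFF2 +DHT. The list, which holds androgen-responsive genes, moved with the groups, and its part in the results below was not tested. Of the basal markers, KRT5 was at 0 in every library, and the summed levels of basal, stromal, leukocyte and endothelial markers were at most 1.77, 38.8, 8.32 and 29.5 CPM. TMEFF2 itself stood at 77.8, 73.8 and 103 CPM in sh_scramble −DHT and at 68.6, 39.3 and 81.7 CPM in sh_TMEFF2 −DHT. With DHT it stood at 173, 117 and 169 CPM in sh_scramble and at 142, 90.1 and 115 CPM in sh_TMEFF2. The lines overlapped at both hormone levels, and the differences of −0.43 ± 0.25 (log2, SE, adjusted p = 0.503) without DHT and −0.41 ± 0.24 (adjusted p = 0.304) with DHT did not pass the test. Differences between the lines are therefore given below as differences between libraries labelled by their shRNA.

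Per kilobase of canonical transcript, which allows levels to be compared between genes, MCL1 was the most abundant member at a mean over the groups of 66.7 CPM per kb, followed by BAX at 43.99 and BCL2L1 at 40.6 CPM per kb. BAK1 stood at 12.3 CPM per kb. The BH3-only genes lay lower, with BIK at 8.96, BID at 8.70, BCL2L11 at 6.97, PMAIP1 at 6.70 and BBC3 at 4.12 CPM per kb. BCL2 was the least abundant by this measure at 0.506 CPM per kb, and its 47 to 123 counts per library were the fewest behind any member. Among the guardians ranked here, MCL1 and BCL2L1 were thus the main transcripts. BCL2L2, a guardian outside the members with group means of 61.6 to 83.1 CPM, was not ranked per kilobase. The transcript length used is that of 1 annotated isoform, so positions close together, such as BIK and BID or BCL2L11 and PMAIP1, should not be read as ordered.

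**Figure D1:**
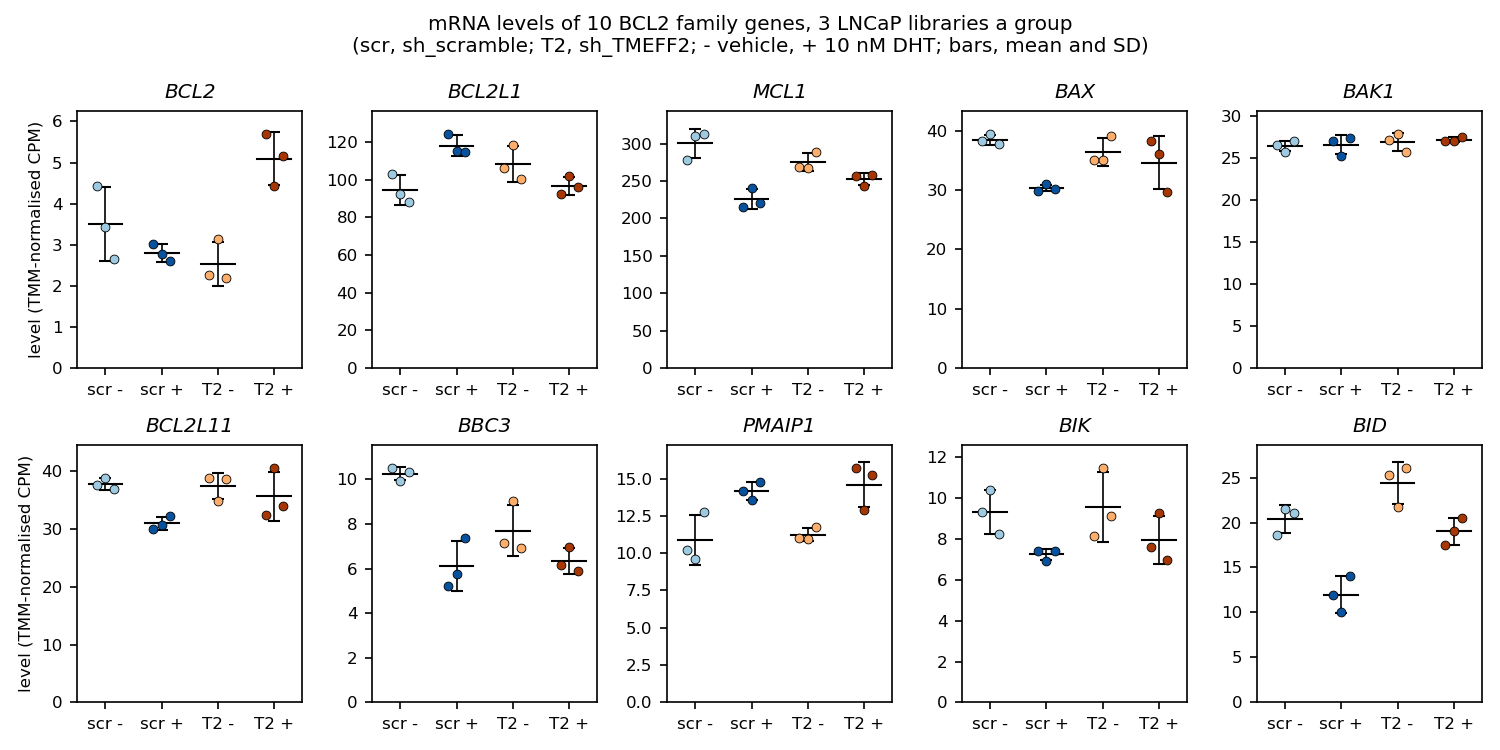
Level of each of the 10 genes in CPM (vertical axis, starting at 0, own scale per gene) in the 4 groups, with 1 point per library and the mean and SD of 3 libraries as bars. BCL2 is highest in sh_TMEFF2 +DHT, BID is lowest in sh_scramble +DHT at 10.0 to 14.1 CPM, and BAK1 lies between 25.2 and 27.8 CPM in every library.

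The first question was how DHT changed the family in control cells. In sh_scramble, DHT lowered MCL1, BAX, BCL2L11, BBC3 and BID and raised BCL2L1 and PMAIP1. Of the 10 members, 5 were called lower, against 12.6% of all genes tested, and 2 were called higher, against 14.4%, at an adjusted p of at most 0.05 (edgeR quasi-likelihood test). The fall was largest in BBC3 and BID, the 2 members that also passed a fold of 1.5 in either direction, a rule met by 11.9% of all genes. With libraries scaled by their totals alone, 5 members were lower and 1 higher, against 17.5% and 10.9% of all genes, so that the order of the shares turned over; the median of all genes then lay 0.07 lower on the log2 scale. Libraries with and without DHT did not overlap for 8 of the 10 members, against 41.8% of all genes tested. The median log2 fold change of the 10 members was −0.33, and that of all genes tested was −0.01. Changes therefore ran both ways among guardians and among BH3-only genes alike. In bulk libraries such as these, less RNA per cell and fewer cells that express a gene cannot be told apart.

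Among the guardians, MCL1, a short-lived protein that blocks BAK1 and BIM, had 278, 311 and 313 CPM without DHT and 215, 241 and 221 CPM with DHT in sh_scramble. All libraries with DHT lay below all libraries without it. The log2 fold change was −0.41 ± 0.07 (SE, adjusted p = 0.00051), a level 24.9% lower. BCL2L1, the guardian known for protecting epithelial cells, had 103, 92.6 and 87.9 CPM without DHT and 124, 115 and 115 CPM with DHT. It moved the opposite way to MCL1, again without overlap, by 0.32 ± 0.08 (adjusted p = 0.0098). BCL2, the founding member of the family, had 4.43, 3.44 and 2.64 CPM without DHT and 3.03, 2.78 and 2.60 CPM with it. The groups overlapped, and the difference of −0.32 ± 0.22 (adjusted p = 0.315) did not pass the test, with an interval of 2 standard errors from −0.77 to 0.12.

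Of the pore-forming effectors, BAX fell and BAK1 was not called. BAX had 38.2, 39.5 and 37.8 CPM without DHT and 29.9, 30.9 and 30.2 CPM with it, a log2 fold change of −0.34 ± 0.09 (adjusted p = 0.0131). The libraries of each group lay within about 2 CPM of each other, and the groups did not overlap. BAK1 had 26.6, 25.7 and 27.0 CPM without DHT and 27.0, 25.2 and 27.4 CPM with it, and the interval of its difference ran from −0.13 to 0.15 on the log2 scale. The call of BAX was lost when only the second of the 2 columns of each library was counted (log2 −0.23, adjusted p = 0.279), an alternative chosen after seeing the data.

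The BH3-only genes were led by BID and BBC3. BID, which links death receptors to mitochondria once it is cleaved by caspase-8, had 18.6, 21.5 and 21.1 CPM without DHT and 11.9, 10.0 and 14.1 CPM with DHT. The log2 fold change was −0.77 ± 0.13 (adjusted p = 0.000774), the largest fall of the 10. BBC3, whose product PUMA binds every guardian, had 10.5, 9.92 and 10.3 CPM without DHT and 5.198, 5.76 and 7.35 CPM with it. It fell by 0.75 on the log2 scale (SE 0.15, adjusted p = 0.00323). Neither gene had a library with DHT as high as the lowest without it.

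BCL2L11, whose product BIM is a target of FOXO transcription factors and activates BAX directly, had 37.7, 38.9 and 37.0 CPM without DHT and 30.03, 30.8 and 32.3 CPM with it, a log2 fold change of −0.29 ± 0.09 (adjusted p = 0.0278). PMAIP1, whose product NOXA binds MCL1 and promotes its degradation, rose from 10.2, 9.61 and 12.8 CPM to 14.2, 13.6 and 14.8 CPM, by 0.38 ± 0.12 (adjusted p = 0.0363). Both changes were free of overlap but stood near the threshold. For BCL2L11 the call was lost without any single library of sh_scramble except +DHT replicate 3 (5 of 12 fits, log2 between −0.32 and −0.27, adjusted p when lost 0.0521 to 0.0824). For PMAIP1 it was lost without any single library of sh_scramble except −DHT replicate 3 (5 of 12 fits, log2 between 0.30 and 0.52, adjusted p when lost 0.0560 to 0.128). Over all alternatives fitted, the call held in 14 of 21 for BCL2L11 and in 11 of 21 for PMAIP1. BIK, a BH3-only protein of the endoplasmic reticulum, had 9.32, 10.4 and 8.22 CPM without DHT and 7.42, 6.93 and 7.40 CPM with it. Its groups did not overlap, yet the difference of −0.36 ± 0.16 did not pass the test (adjusted p = 0.110).

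**Figure D2:**
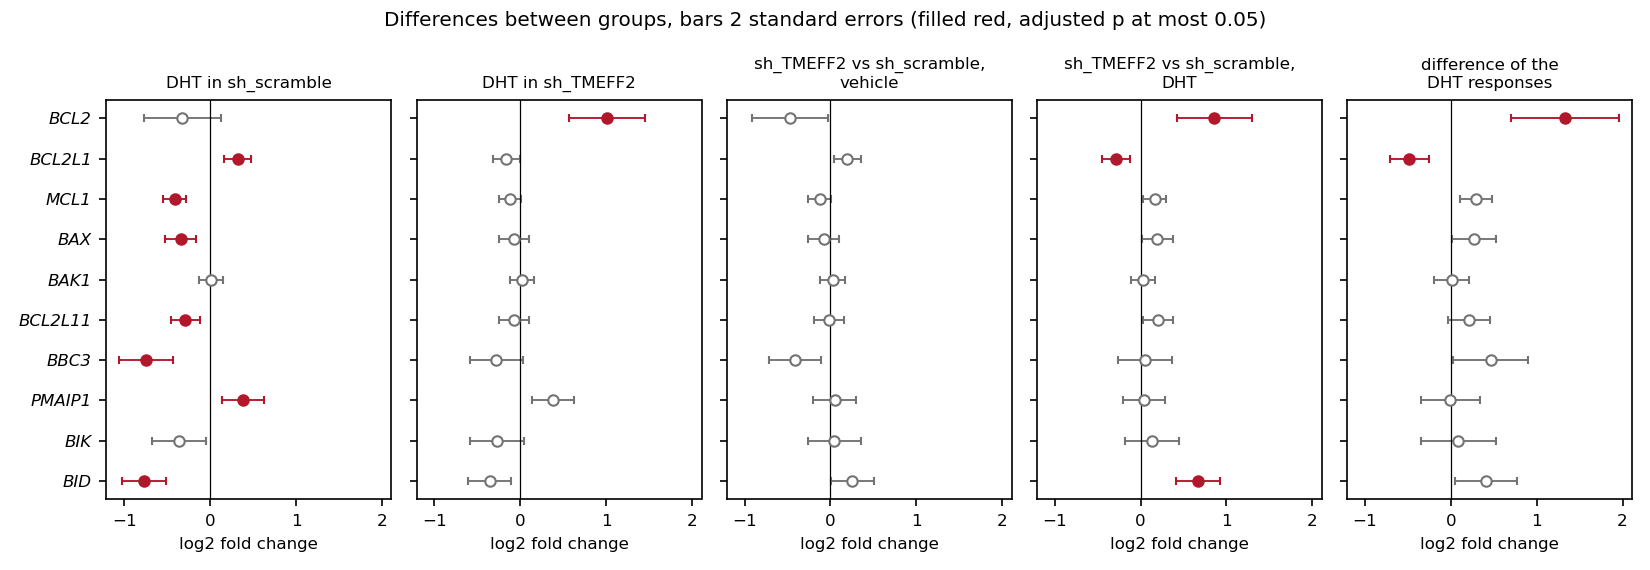
Log2 fold change of each gene in the 5 comparisons (horizontal axis), with bars of 2 standard errors from the edgeR fit of all 12 libraries; filled red points have an adjusted p of at most 0.05. The first panel holds 7 called genes, the second holds BCL2 alone, the third holds none, the fourth holds BCL2, BCL2L1 and BID, and the fifth holds BCL2 and BCL2L1.

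The second question was how the same hormone acted in sh_TMEFF2 cells. Here BCL2 rose, and no other member was called: 1 of 10 was higher, against 7.84% of all genes tested, and 0 of 10 were lower, against 5.21%. At an unadjusted p under 0.05 there were 3 members, BCL2, PMAIP1 and BID, against 27.2% of all genes. DESeq2 called 2, BCL2 and PMAIP1, against 18.3% of the genes it tested. BCL2 was also the member past a fold of 1.5, which 4.88% of all genes passed. Libraries with and without DHT did not overlap for 4 of 10 members, against 31.3% of all genes. The median log2 fold change of the members was −0.10 and that of all genes −0.02.

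BCL2 had 2.26, 3.14 and 2.18 CPM in sh_TMEFF2 −DHT and 5.69, 4.43 and 5.16 CPM in sh_TMEFF2 +DHT. All libraries with DHT lay above all libraries without it, and the level was 2.01 times as high (log2 1.01 ± 0.22, adjusted p = 0.0108). The call held in 12 of 12 fits that left out 1 library, with a log2 fold change of 0.92 to 1.196. It was lost when only the first column of each library was counted (log2 0.62, adjusted p = 0.314) and held with the second column (log2 1.55, adjusted p = 0.0155), both chosen after seeing the data. BCL2 lay under the mean of 5 CPM that the study's methods set for transcripts, so it could not be called with that filter applied to genes.

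The members that had fallen in sh_scramble had smaller differences in sh_TMEFF2. MCL1 had 269, 267 and 289 CPM without DHT and 256, 244 and 258 CPM with it, which did not overlap, and the difference of −0.12 ± 0.07 did not pass the test (adjusted p = 0.256). BID had 25.3, 21.7 and 26.0 CPM without DHT and 17.5, 19.1 and 20.5 CPM with it, also without overlap, at −0.36 ± 0.13 (adjusted p = 0.0819). BBC3 had 7.16, 9.03 and 6.92 CPM without DHT and 6.16, 6.98 and 5.87 CPM with it, at −0.28 ± 0.15 (adjusted p = 0.269). In BID and MCL1 the order of the groups was thus that of the control cells.

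BCL2L1, which rose with DHT in the control cells, had 106, 119 and 100 CPM without DHT and 92.1, 102 and 96.3 CPM with it in sh_TMEFF2, at −0.16 ± 0.08 (adjusted p = 0.210). PMAIP1 had 11.01, 10.98 and 11.7 CPM without DHT and 15.7, 12.9 and 15.2 CPM with it, at 0.38 ± 0.12 (adjusted p = 0.0623), a difference of the same size as in sh_scramble on the other side of the threshold. BAX went from 35.1, 35.0 and 39.1 CPM to 38.2, 36.1 and 29.7 CPM, and its replicate 3 with DHT was the lowest BAX value of all 12 libraries. BCL2L11 went from 38.9, 34.9 and 38.7 CPM to 32.5, 40.6 and 34.0 CPM. For both genes the log2 difference was −0.07 ± 0.09 and the groups overlapped. BIK went from 8.12, 11.5 and 9.14 CPM to 7.59, 9.27 and 6.99 CPM (log2 −0.27 ± 0.16, adjusted p = 0.293), and BAK1 from 27.1, 27.8 and 25.7 CPM to 27.0, 26.9 and 27.5 CPM.

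Whether the lines differed in their response was tested with an interaction term. BCL2 and BCL2L1 passed: 1 of 10 members had the higher response in sh_TMEFF2, against 1.65% of all genes tested, and 1 of 10 the lower, against 3.29% (2.40% and 2.58% with libraries scaled by their totals alone). For BCL2 the difference of responses was 1.33 ± 0.31 on the log2 scale (adjusted p = 0.0292), from −0.32 in sh_scramble to 1.01 in sh_TMEFF2. For BCL2L1 it was −0.48 ± 0.11 (adjusted p = 0.0276), from 0.32 to −0.16. The differences of these guardians had opposite signs. Both calls were near the threshold. That of BCL2 held in 3 of 12 fits without 1 library, those without sh_scramble −DHT replicate 3, sh_TMEFF2 −DHT replicate 2 or sh_TMEFF2 +DHT replicate 2, and the value stayed between 1.124 and 1.52 with an adjusted p of 0.0514 to 0.0731 when lost. That of BCL2L1 held in 4 of 12, those without sh_scramble −DHT replicate 1, sh_scramble +DHT replicate 3, sh_TMEFF2 −DHT replicate 3 or sh_TMEFF2 +DHT replicate 2, with a value between −0.55 and −0.41 and an adjusted p of 0.0502 to 0.0767 when lost. With single columns, BCL2 was lost with the first (log2 1.11, adjusted p = 0.312) and the second (log2 1.69, adjusted p = 0.0899), and BCL2L1 with the second (log2 −0.47, adjusted p = 0.0885).

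The other members gave no called interaction. MCL1 differed by 0.29 ± 0.09 (adjusted p = 0.103), an interval of 2 standard errors from 0.10 to 0.47, and was called by DESeq2 (adjusted p = 0.0382). BID differed by 0.41 ± 0.18 (adjusted p = 0.253), BBC3 by 0.47 ± 0.22 (adjusted p = 0.296) and BAX by 0.27 ± 0.13 (adjusted p = 0.292). The responses of PMAIP1 differed by −0.01 ± 0.17 and those of BAK1 by 0.01 ± 0.10. In all, 8 of 10 members had the smaller absolute response in sh_TMEFF2, a description that rests on values most of which did not pass the test of the difference. The share of all genes with a smaller response was not computed, and DHT called 4157 genes in sh_scramble and 2013 in sh_TMEFF2. The count is therefore not read as a trait of the family.

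**Figure D3:**
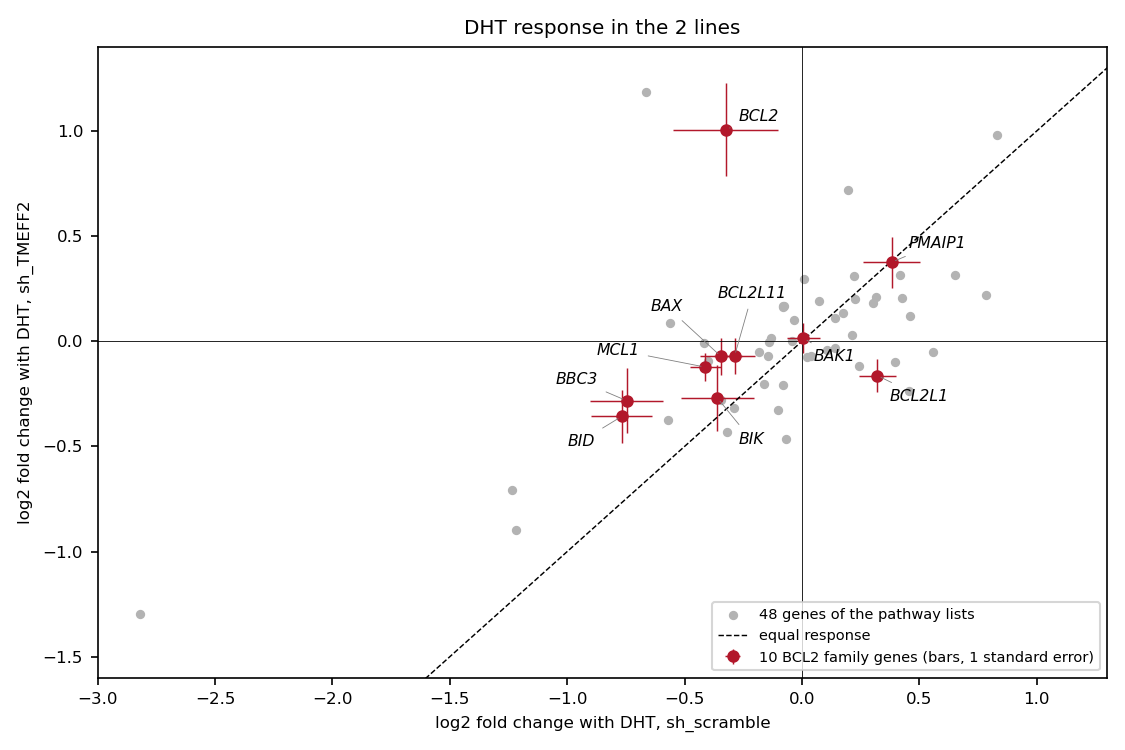
Log2 fold change with DHT in sh_scramble (horizontal axis) and in sh_TMEFF2 (vertical axis) for the 10 members (red, bars of 1 standard error) and the 48 tested genes of the pathway lists (grey); the dashed line marks equal response. BCL2 lies far above the line at −0.32 and 1.01, BCL2L1 lies below it at 0.32 and −0.16, and PMAIP1 and BAK1 lie on it.

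The lines were also compared at each hormone level. Without DHT no member was called: 0 of 10 were higher, 0 of 10 were lower and 0 of 10 passed the fold of 1.5, against 0.623%, 0.493% and 0.571% of all genes tested (edgeR). At an unadjusted p under 0.05 there were 2 members, BBC3 and BCL2L1, against 13.5% of all genes, a share near theirs. DESeq2, which called 3.95% of the genes it tested, limma-voom and the other alternatives called 0 members. Libraries of the lines did not overlap for 2 of 10 members, against 18.5% of all genes tested, again a share near theirs. BBC3 was lower in every sh_TMEFF2 −DHT library, at most 9.03 CPM, than in any sh_scramble −DHT library, at least 9.92 CPM (log2 −0.41 ± 0.15, adjusted p = 0.248). BID was the reverse, at least 21.7 CPM against at most 21.5 CPM (log2 0.26 ± 0.13, adjusted p = 0.404). The BCL2 difference was −0.47 ± 0.22 (adjusted p = 0.386), with overlap.

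With DHT, BCL2 and BID were higher and BCL2L1 was lower in sh_TMEFF2 than in sh_scramble: 2 of 10 members were called higher, against 6.93% of all genes tested, and 1 of 10 lower, against 9.09%. BCL2 and BID also passed the fold of 1.5, as 6.77% of all genes did. Libraries of the lines did not overlap for 5 of 10 members, against 32.5% of all genes. With libraries scaled by their totals alone, 3 members were higher (BCL2, BID and MCL1) and 0 lower, against 10.5% and 7.14% of all genes, again with the order of the shares turned over. BID, at 17.5 to 20.5 CPM against 10.0 to 14.1 CPM, was 1.59 times as high (log2 0.67 ± 0.13, adjusted p = 0.00385), and this call held in 12 of 12 fits without 1 library. BCL2, at 4.43 to 5.69 CPM against 2.60 to 3.03 CPM, was 1.82 times as high (log2 0.86 ± 0.22, adjusted p = 0.0186). Its call was lost without sh_scramble +DHT replicate 3 (log2 0.81, adjusted p = 0.0594) or sh_TMEFF2 +DHT replicate 1 (log2 0.77, adjusted p = 0.0672), and with either column alone (log2 0.78 and 0.96, adjusted p = 0.190 and 0.0886). BCL2L1, at 92.1 to 102 CPM against 115 to 124 CPM, differed by −0.29 ± 0.08 (adjusted p = 0.0279). It was lost without sh_scramble +DHT replicate 1 (log2 −0.24), sh_scramble +DHT replicate 2 (log2 −0.29), sh_TMEFF2 +DHT replicate 1 (log2 −0.25) or sh_TMEFF2 +DHT replicate 3 (log2 −0.27), and when libraries were scaled by their totals alone (log2 −0.23, adjusted p = 0.0524) or the second column was counted alone (log2 −0.28, adjusted p = 0.0803).

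These comparisons share libraries with the DHT comparisons and are other views of the same values. The remaining members were not called with DHT: BAX was 0.19 ± 0.09 higher (adjusted p = 0.180), MCL1 0.16 ± 0.07 (adjusted p = 0.115), BCL2L11 0.20 ± 0.09 (adjusted p = 0.140) and BIK 0.13 ± 0.16 (adjusted p = 0.636). MCL1 was called when libraries were scaled by their totals alone (log2 0.22, adjusted p = 0.0441), and BAX without sh_TMEFF2 +DHT replicate 3, its lowest library (log2 0.30, adjusted p = 0.0243). BBC3, PMAIP1 and BAK1 differed by 0.05 ± 0.16, 0.04 ± 0.12 and 0.03 ± 0.07.

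The order of the 4 groups differed by gene. For MCL1 it ran from sh_scramble −DHT over sh_TMEFF2 −DHT and sh_TMEFF2 +DHT to sh_scramble +DHT, and the first 2 of these overlapped. For BID it ran from sh_TMEFF2 −DHT over sh_scramble −DHT and sh_TMEFF2 +DHT to sh_scramble +DHT, and the middle pair overlapped. For BCL2L1 it ran from sh_scramble +DHT over sh_TMEFF2 −DHT and sh_TMEFF2 +DHT to sh_scramble −DHT, and every pair of neighbours overlapped. PMAIP1 split by hormone alone, with both +DHT groups above both −DHT groups in the means and overlap within each hormone level. BAX, BAK1, BIK and BCL2 had overlap between all neighbours. In BCL2L11 sh_scramble +DHT was below the rest, and in BBC3 sh_scramble −DHT was above the rest, without overlap with the next group.

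As a description of balance, the ratio of BAX to BCL2 counts within a library was 8.62, 11.5 and 14.3 in sh_scramble −DHT and 9.87, 11.1 and 11.6 in sh_scramble +DHT. In sh_TMEFF2 it was 15.6, 11.1 and 17.9 without DHT and 6.71, 8.14 and 5.75 with DHT. The sh_TMEFF2 +DHT libraries had the lowest ratios of all 12. BCL2, with its low counts, was the called gene of the pair in that line. The ratio of BCL2L11 to MCL1 counts ran from 0.118 to 0.167 over the 12 libraries, and the groups overlapped. In sh_TMEFF2 +DHT it was 0.127, 0.167 and 0.132.

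Genes with the most similar pattern were sought over the 12 libraries, by the root mean square difference in log2 CPM centred per gene. For BCL2L1 they included VCP at 0.052 and ZNHIT1 at 0.063, against 0.152 for the deviations of BCL2L1 itself. For BCL2 they were CLEC2D at 0.251, CDC20P1 at 0.265 and DSEL at 0.269, against 0.431 for BCL2 itself. The pattern of BCL2 was thus matched less closely, at its lower counts. CDC20P1 had group means of 0.26 to 0.64 CPM, so its match rests on few counts.

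Other genes of the mitochondrial pathway were followed in 6 lists of 51 genes, of which 48 were tested. BCL2A1, BCL2L10 and BIRC7 had at most 1, 3 and 2 counts in any library and were not tested. In sh_scramble DHT raised 9 and lowered 10 of the 48, against 14.4% and 12.6% of all genes tested, and in sh_TMEFF2 it raised 3 and lowered 7, against 7.84% and 5.21%. Between the lines 0 of 48 were called without DHT (DESeq2 called 3), and with DHT 6 were higher and 6 lower in sh_TMEFF2, against 6.93% and 9.09%. The interaction was called for 5, with 2 higher and 3 lower responses in sh_TMEFF2, against 1.65% and 3.29%. The same shares are the background of the counts given below for each list.

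Among the 11 tested other members of the BCL2 family, 1 rose and 2 fell with DHT in sh_scramble (median log2 −0.10). BMF, a BH3-only protein tied to the cytoskeleton, fell from a mean of 27.8 to 11.96 CPM (log2 −1.22 ± 0.20, adjusted p = 0.000719), more than any of the 10 members. In sh_TMEFF2 it fell from 40.8 to 21.9 CPM (log2 −0.90 ± 0.19, adjusted p = 0.0103). With DHT it was higher in sh_TMEFF2 than in sh_scramble (log2 0.87 ± 0.20, adjusted p = 0.0113), as BID was. HRK, another BH3-only gene, fell from 2.73 to 0.38 CPM in sh_scramble (log2 −2.82 ± 0.88, adjusted p = 0.0317). At such low levels the size of its fall was uncertain, with an interval of 2 standard errors from −4.58 to −1.06. BCL2L12 rose in sh_scramble from 9.12 to 12.2 CPM (adjusted p = 0.00919). BOK, an effector-like relative of BAX, fell in sh_TMEFF2 from 54.9 to 43.8 CPM (adjusted p = 0.0418). The guardian BCL2L2 (BCL-w) was lower in sh_TMEFF2 than in sh_scramble with DHT, at 61.6 against 83.1 CPM (log2 −0.43 ± 0.09, adjusted p = 0.00799), and so was BNIP3L, a mitophagy receptor, at 177 against 241 CPM (adjusted p = 0.00926).

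Of the 12 genes listed for mitochondrial release and caspases, 2 rose and 1 fell with DHT in sh_scramble (median log2 0.08). The list also holds CASP8, which acts before release by cleaving BID, and CASP2, so it is not limited to later steps. CYCS, cytochrome c, rose by 0.22 ± 0.06 in sh_scramble (adjusted p = 0.0133) and by 0.31 ± 0.06 in sh_TMEFF2 (adjusted p = 0.00486). AIFM1 rose by 0.21 ± 0.07 and CASP6, an executioner caspase, fell by 0.42 on the log2 scale in sh_scramble (adjusted p = 0.0382 and 0.0418). CASP9, the caspase that the apoptosome activates, fell in sh_TMEFF2 from 12.5 to 9.04 CPM (adjusted p = 0.0424), and CASP2 was higher in sh_TMEFF2 than in sh_scramble with DHT (log2 0.35 ± 0.08, adjusted p = 0.0107).

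Among 5 tested caspase inhibitors, XIAP, which binds and blocks caspases directly, was called in the same 3 comparisons and with the same signs as BCL2L1. It rose with DHT in sh_scramble from 110 to 145 CPM (log2 0.39 ± 0.08, adjusted p = 0.00315), was lower in sh_TMEFF2 with DHT (log2 −0.38 ± 0.08, adjusted p = 0.00656) and passed the interaction (log2 −0.49 ± 0.11, adjusted p = 0.0280). NAIP fell from 100.3 to 42.6 CPM in sh_scramble (log2 −1.23 ± 0.10, adjusted p = 2.42e-06). In sh_TMEFF2 it fell from 94.9 to 58.0 CPM (log2 −0.71 ± 0.10, adjusted p = 0.0010). Its interaction of 0.52 ± 0.14 (adjusted p = 0.0495) stood at the threshold. That call was lost without any single sh_scramble +DHT library, among others, where 0 pathway genes had a called higher response. BIRC3 fell in sh_scramble from 20.5 to 13.9 CPM (adjusted p = 0.0057) and was higher in sh_TMEFF2 with DHT (adjusted p = 0.0152). The list thus held changes in both directions, with 1 higher and 2 lower in sh_scramble.

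Of the 6 genes for MCL1 turnover, 1 rose and 2 fell in sh_scramble. MARCH5, a mitochondrial ubiquitin ligase that promotes loss of MCL1, rose from 73.9 to 101 CPM (log2 0.46 ± 0.09, adjusted p = 0.00256), was lower in sh_TMEFF2 with DHT at 71.1 CPM (adjusted p = 0.00217), and passed the interaction (log2 −0.69 ± 0.13, adjusted p = 0.00849). GSK3B, a kinase that marks MCL1 for degradation, fell in both lines (log2 −0.29 ± 0.06 and −0.32 ± 0.06, adjusted p = 0.00413 and 0.00622). USP9X, a deubiquitinase of MCL1, fell in sh_scramble (log2 −0.18 ± 0.05, adjusted p = 0.0201).

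Of the 7 transcription factors known to drive BH3-only genes, 1 rose and 3 fell with DHT in sh_scramble (median log2 −0.32). FOXO3, which drives BCL2L11 and BBC3, fell from 315 to 212 CPM in sh_scramble (log2 −0.57 ± 0.07, adjusted p = 5.55e-05) and from 271 to 209 CPM in sh_TMEFF2 (log2 −0.37 ± 0.07, adjusted p = 0.00413). E2F1 rose in both lines (log2 0.83 ± 0.19 and 0.98 ± 0.19, adjusted p = 0.00697 and 0.00618), and DDIT3 fell in both (log2 −0.32 ± 0.11 and −0.43 ± 0.11, adjusted p = 0.0416 and 0.0188).

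Of the 7 channel and fission genes, 3 rose and 0 fell in sh_scramble (median log2 0.18), against 14.4% and 12.6% of all genes. DNM1L, the fission enzyme that meets BAX at the outer membrane, rose from 137 to 235 CPM (log2 0.78 ± 0.08, adjusted p = 1.21e-05), was lower in sh_TMEFF2 with DHT (log2 −0.65 ± 0.08, adjusted p = 0.00011) and passed the interaction (log2 −0.56 ± 0.11, adjusted p = 0.0107). MFN1, a fusion protein, rose by 0.46 ± 0.07 (adjusted p = 0.000353) and was lower in sh_TMEFF2 with DHT (log2 −0.29 ± 0.07, adjusted p = 0.0129). VDAC1, the main channel of the outer membrane, rose by 0.30 ± 0.05 in sh_scramble and by 0.18 ± 0.05 in sh_TMEFF2 (adjusted p = 0.000571 and 0.0286). OPA1, which shapes the cristae, was higher in sh_TMEFF2 with DHT (log2 0.29 ± 0.07, adjusted p = 0.0122). CYCS, VDAC1 and NAIP have close copies elsewhere in the genome, and how reads were shared with them was not tested.

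**Figure D4:**
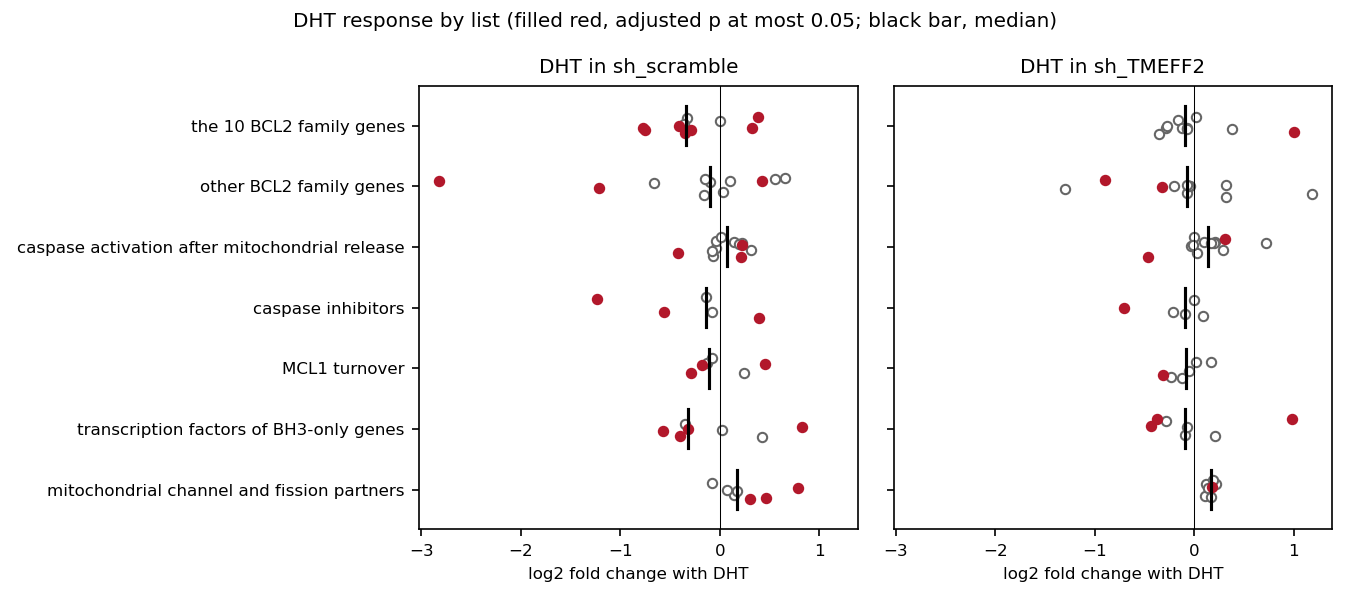
Log2 fold change with DHT (horizontal axis) in sh_scramble and sh_TMEFF2 for the 10 members and the 6 pathway lists, with 1 point per gene, called genes in filled red and the median of each list as a black bar. In sh_scramble the members have a median of −0.33 and the channel and fission genes one of 0.18; in sh_TMEFF2 these medians are −0.10 and 0.16.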

How the data were processed

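RNA-seq of 12 LNCaP libraries in 4 groups of 3 was analysed. The authors trimmed reads with Trimmomatic, checked them with FastQC and quantified them with kallisto 0.42.3 on the GRCh38 transcriptome. They deposited expected counts per gene (estimated counts scaled by library size and mean transcript length) in 24 columns, 2 for each library. The 2 columns were taken as repeat runs, since each pair carries 1 library name with and without a suffix; their sum was rounded. This reading was not stated in the sources used here, and the columns differed by more than counting noise (median chi-square over expected 2.48 to 2.77 between columns, 4.91 to 6.30 between replicates).

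In R 4.3.3, edgeR 4.0.16 was applied to all 12 libraries with TMM normalization (factors 0.955 to 1.04), filterByExpr (minimum count 10, minimum total 15), 1 coefficient per group, the quasi-likelihood test and Benjamini-Hochberg adjustment over 15419 genes. Genes were called at an adjusted p of at most 0.05. The study used DESeq2 with a fold of 1.5, and both were tried as alternatives, beside limma-voom (limma 3.58.1), DESeq2 1.42.0, other filters and scalings, single columns and fits without each library. Scripts were tested on simulated data. Errors are SE of log2 fold changes, which come with 3 libraries a group.

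The members and lists were chosen with earlier results of these data known. All 10 members are named, and from each pathway list at most 3 called genes per comparison, those with the smallest p; some genes that this rule or the likeness measure selects are not reported here. Same-numbered replicates deviated from their group means with correlations of −0.002 to 0.169, over 0.1 in 3 of 12 pairs, so numbers were not taken to pair libraries. BH3 stretches were read from GENCODE transcripts, whose coding sequences were translated. The motif was sought in the translation as leucine, 3 variable residues, glycine or alanine, and aspartate. GENCODE annotation on GRCh38 also gave positions, transcript lengths and overlapping genes. No separate source of protein sequences was used.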

Additional observations from a re-analysis of the deposited data

Results flagged for a closer look

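The responses of 2 members to DHT differed between the lines by the interaction test of edgeR. BCL2 differed by 1.33 on the log2 scale (SE 0.31, adjusted p = 0.0292): it was higher with DHT in every sh_TMEFF2 library, and overlapped between the hormone levels in sh_scramble. BCL2L1 differed by −0.48 (SE 0.11, adjusted p = 0.0276): it was higher with DHT in every sh_scramble library and overlapped in sh_TMEFF2. Both calls were near the threshold. In fits without 1 library, that of BCL2 held in 3 of 12 and that of BCL2L1 in 4 of 12. Groups of 3 libraries were too small for a test of single outlying libraries.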

How the results depend on the processing

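Of 1035 refitted member fold changes, 939 kept their direction and their side of the threshold, and 8 gained a call. Another 39, all uncalled and near 0, changed sign, and 49 lost a call. Most of the 1035 had no call to lose, so the total says little about the calls themselves. The interaction call held in 8 of 19 refits for BCL2 and in 11 of 20 for BCL2L1. The falls of MCL1, BBC3 and BID and the rise of BCL2L1 with DHT in sh_scramble, and the higher BID in sh_TMEFF2 with DHT, held in all 21 refits. BCL2 had 47 to 123 counts a library. The causes of the changes below were not tested.

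With DESeq2, 2 members were called for DHT in sh_TMEFF2 (main 1), 539 genes (main 172) and 3 pathway genes (main 0) for the lines without DHT, and 1198 genes for the interaction (main 761). Without the filter on low counts, 298 genes were called for the lines without DHT, and 73 when the 6 libraries alone were fitted. A mean above 5 CPM removed BCL2 and left 0 members for DHT in sh_TMEFF2, and 1 member for the difference of responses (main 2). A fold of 1.5 left 2 members for DHT in sh_scramble (main 7), and 1835, 753, 88 and 1044 genes in the first 4 comparisons (main 4157, 2013, 172 and 2470). With the replicate block, 3 members were called for DHT in sh_TMEFF2, PMAIP1 and BID beside BCL2, and 362 genes for the lines without DHT; it changed no other member's call. Single columns were chosen after seeing the data. The first gave 0 members for the hormone response of sh_TMEFF2 and 1 for the interaction. The second gave 4 for DHT in sh_scramble, 1 for the lines with DHT and 0 for the interaction.

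Without 1 library, DHT in sh_TMEFF2 gave 1 to 2 members (PMAIP1 was added without sh_scramble −DHT replicate 3 or sh_TMEFF2 +DHT replicate 2), 5 to 10 pathway genes and 877 (without sh_TMEFF2 +DHT replicate 3) to 2013 genes. The lines without DHT gave 45 (without sh_scramble −DHT replicate 1) to 197 genes. The lines with DHT gave 1 (without sh_TMEFF2 +DHT replicate 1) to 3 members and 1628 (without sh_scramble +DHT replicate 1) to 2534 genes. The interaction gave 0 to 2 members, 2 to 5 pathway genes and 465 (without sh_scramble −DHT replicate 2) to 765 genes.

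The log2 values that changed sign were these. For DHT in sh_scramble, BAK1 was −0.063 by library size, −0.016 above 5 CPM, −0.13 with the first column and −0.015 to 0.045 without 1 library. For DHT in sh_TMEFF2, BAK1 was −0.037 with the first column and −0.0075 to 0.042 without 1 library, and BAX −0.15 to 0.038. For the lines without DHT, the first column gave −0.032 for BAK1 and −0.028 for BIK, the second 0.080 for BAX and 0.036 for BCL2L11, and leaving out 1 library −0.0020 to 0.061 for BAK1, −0.032 to 0.19 for PMAIP1, −0.041 to 0.035 for BCL2L11 and −0.11 to 0.15 for BIK. For the lines with DHT, the second column gave −0.025 for BBC3 and −0.089 for PMAIP1, and leaving out 1 library −0.039 to 0.21 and −0.012 to 0.14. For the interaction, PMAIP1 was 0.0023 with DESeq2, 0.065 by library size, 0.019 above 5 CPM, 0.084 with the first column and −0.13 to 0.086 without 1 library, BAK1 −0.076 with the second column and −0.019 to 0.035, and BIK −0.027 to 0.24.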
